A study of Mus musculus with 10 samples.

Results

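Immunoglobulin light chain genes were followed in tumours of a mouse ovarian cancer model. The members were all genes of the deposited table whose symbol begins with Igkv, Igkc, Iglv or Iglc, which gave 136 of 32830 genes. They comprise 128 kappa variable genes (Igkv), the kappa constant gene Igkc, 3 lambda variable genes (Iglv) and 4 lambda constant genes (Iglc). On the GRCm38 build, the 129 kappa genes lie on chromosome 6 and the 7 lambda genes on chromosome 16. GENCODE M21 annotates 99 of the Igkv genes as functional variable genes and 29 as pseudogenes. Tumour tissue was sequenced after treatment with PBS (2 libraries), with an inhibitor of the cell cycle kinases CDK4 and CDK6 (CDK4/6i, 3 libraries), with an antibody to PD-1, an inhibitory receptor of T cells (2 libraries), or with inhibitor and antibody together (3 libraries). All 10 libraries carry the genotype label WT, and mouse strain, age, implanted cells, dose and time were not given in the sources used here. The combination was grouped by sample titles, because the treatment text of its replicates 2 and 3 gives the antibody another number. Nothing in the labels ties a library to a separate animal, so p-values measure only the spread between these samples.

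An antibody is built of paired heavy and light chains, and each light chain comes from either the kappa or the lambda locus. During B cell development a variable gene is joined to a short joining segment by DNA recombination, and the transcript is then spliced to a constant gene. A cell normally expresses 1 light chain, and in mice most B cells use kappa. Plasma cells, the antibody-secreting descendants of B cells, hold very large amounts of this RNA, so reads over the variable genes largely reflect the variable genes that such cells use. The reads were counted per gene and do not identify clones. In bulk tissue, fewer cells of a type and less RNA per cell cannot be told apart.

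The following sequences are the 3' ends of the coding exons of the 7 Igkv genes that led at least 1 library, together with Igkv6-13, the most variable member. They come from GENCODE M21 transcripts on GRCm38 and are written 5' to 3' on the gene's strand. Capitals mark the bases after the codon of the conserved cysteine, which begin the third complementarity determining region of the light chain, the loop that recombination completes.
Igkv12-98 (chr6:68571176-68571235, plus strand): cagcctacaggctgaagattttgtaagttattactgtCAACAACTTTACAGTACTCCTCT
Igkv12-44 (chr6:69814631-69814690, minus strand): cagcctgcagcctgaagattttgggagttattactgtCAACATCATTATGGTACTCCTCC
Igkv19-93 (chr6:68736297-68736356, minus strand): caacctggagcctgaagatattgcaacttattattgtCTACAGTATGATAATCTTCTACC
Igkv3-7 (chr6:70607977-70608036, plus strand): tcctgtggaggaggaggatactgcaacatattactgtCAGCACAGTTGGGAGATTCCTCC
Igkv4-55 (chr6:69607275-69607334, minus strand): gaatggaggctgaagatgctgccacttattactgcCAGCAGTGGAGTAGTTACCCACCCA
Igkv8-30 (chr6:70117061-70117120, minus strand): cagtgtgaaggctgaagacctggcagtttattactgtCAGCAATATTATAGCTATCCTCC
Igkv6-23 (chr6:70260409-70260468, minus strand): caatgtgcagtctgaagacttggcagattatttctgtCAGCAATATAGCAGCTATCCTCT
Igkv6-13 (chr6:70457501-70457560, minus strand): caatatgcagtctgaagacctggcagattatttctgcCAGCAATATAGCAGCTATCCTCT

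Igkv6-23 and Igkv6-13 differ at 3 of these 60 bases and at 0 of the 23 capital bases. Such likeness matters for the values that follow, because how reads shared between near-identical genes were assigned was not given in the sources used here. Of the 99 Igkv genes with a coding sequence, 47 have another member that is over 95% identical, and 8 have one over 98% identical. Levels of single genes in these families are therefore uncertain. The leading genes Igkv19-93 and Igkv12-98 stand further apart from their nearest relatives, at 80.2% identity with Igkv10-94 and 83.2% with Igkv12-44.

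The lambda genes show the same closeness. Iglv1 and Iglv2 are 96.9% identical over their coding sequence, and in the ends printed here capitals mark the bases of Iglv2 that differ from Iglv1.
Iglv1 (chr16:19085017-19085076, minus strand): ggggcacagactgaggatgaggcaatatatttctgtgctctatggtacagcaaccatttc
Iglv2 (chr16:19260401-19260460, minus strand): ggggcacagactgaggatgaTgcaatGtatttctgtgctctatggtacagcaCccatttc

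Iglc2 and Iglc3 are 96.5% identical, whereas Iglc1 is 75.4% identical to Iglc3. The starts of the constant exons are shown with capitals at bases that differ from Iglc3.
Iglc3 (chr16:19065622-19065681, minus strand): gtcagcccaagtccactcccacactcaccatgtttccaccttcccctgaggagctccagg
Iglc2 (chr16:19198793-19198852, minus strand): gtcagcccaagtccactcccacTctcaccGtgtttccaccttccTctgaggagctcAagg
Iglc1 (chr16:19062012-19062071, minus strand): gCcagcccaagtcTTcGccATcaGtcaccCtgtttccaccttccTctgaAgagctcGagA

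Library totals ran from 25132208 reads in PBS replicate 1 to 36260856 reads in combination replicate 3, as recovered from the RPKM values, which scale reads by gene length and library size. The epithelial keratin gene Krt8 stood at 118 to 179 RPKM and Wt1, a transcription factor of mesothelium and of many ovarian tumours, at 33.1 to 53.3 RPKM in every library. Skeletal muscle genes took 9.03% and 8.11% of the reads of inhibitor replicates 1 and 2 and 9.19% of combination replicate 1, against 0.00134% of inhibitor replicate 3, 0.467% and 1.39% of PBS, 0.00167% and 0.492% of the antibody libraries and 0.130% and 0.503% of the other combination libraries, with 10 of 10 muscle genes read in all but antibody replicate 1. These 3 libraries are called muscle-rich from here on. Exocrine pancreas genes took 7.001% and 2.88% of the antibody libraries and at most 1.08% of any other. Liver genes had lower means in each treated group than in PBS. For the albumin gene Alb the log2 fold change against PBS was −5.90 (SE 2.89) with the inhibitor and −1.89 (SE 3.16) with the antibody. With the combination it was −5.60 (SE 2.89). The part of liver tissue in the comparisons with PBS was not tested. Each of the 8 replicate pairs had a chi-square per gene of at least 21.95, well beyond sampling noise.

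Light chain transcripts were abundant in most libraries and low in the 3 muscle-rich ones. In RPM, reads per 1000000 reads of the library, the members together took 2348 and 4474 in PBS, 532, 1270 and 3229 with the inhibitor, 3773 and 4138 with the antibody, and 1443, 4503 and 4600 with the combination. Inhibitor replicates 1 and 2 and combination replicate 1 were the 3 lowest libraries, and the highest library exceeded the lowest 8.64-fold. Group means were 3411 ± 1504 (SD, n = 2) for PBS, 1677 ± 1394 (SD, n = 3) for the inhibitor, 3955 ± 258 (SD, n = 2) for the antibody and 3515 ± 1795 (SD, n = 3) for the combination. The inhibitor group overlapped PBS through its replicate 3, and the combination spanned the range of PBS. Without the muscle-rich libraries the lone inhibitor library stood at 3229 and the 2 combination libraries at a mean of 4551 RPM. The part of muscle tissue in the low values was not tested.

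**Figure D1:**
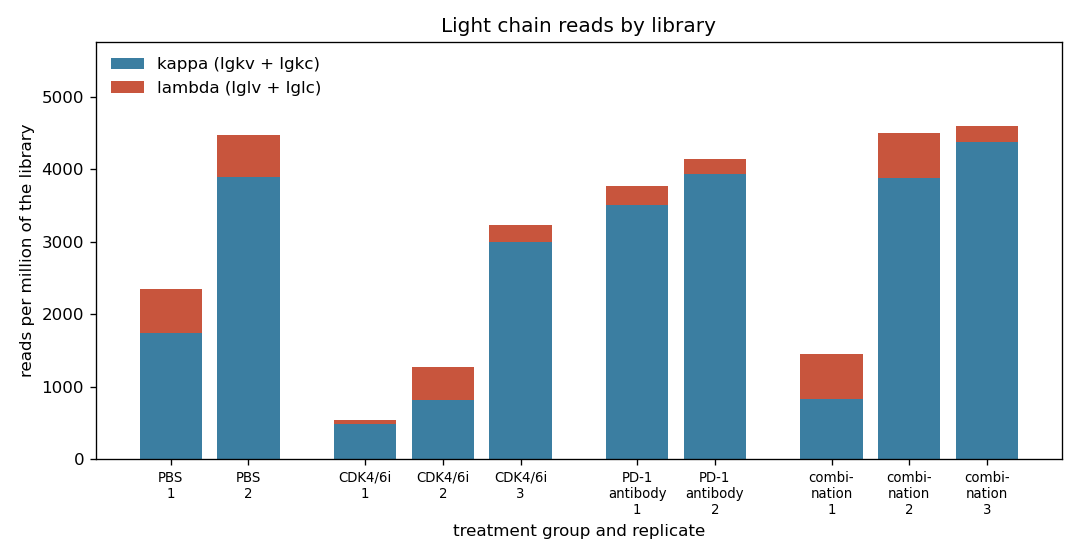
Reads of kappa genes (blue) and lambda genes (red) in RPM of each library, stacked, for the 10 libraries by treatment group and replicate. The total runs from 532 in inhibitor replicate 1 to 4600 in combination replicate 3, and the lambda part is largest relative to kappa in combination replicate 1.

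Igkc, which encodes the constant domain of every kappa chain (chr6:70726435-70726966), was the most abundant member in every library. It stood at 1812 and 4505 RPKM in PBS, 499, 878 and 3188 with the inhibitor, 3714 and 4458 with the antibody, and 907, 4631 and 4778 with the combination. Again the 3 muscle-rich libraries were the lowest. The 2 antibody libraries lay inside the wide range of PBS, inhibitor replicate 3 lay inside it too, and the combination reached below and above it. Reads over all Igkv genes amounted to between 0.573 and 0.804 of the reads over Igkc, so this ratio differed 1.40-fold between libraries while Igkc reads differed 12.8-fold.

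Several transcripts of the cells that make light chains were also low in the muscle-rich libraries, but not all of them were. Jchain, whose product links IgM and IgA into polymers, stood at 102 and 141 RPKM in PBS, 16.6, 29.0 and 61.1 with the inhibitor, 119 and 149 with the antibody, and 51.1, 149 and 138 with the combination. Mzb1, an endoplasmic reticulum protein of plasma and marginal zone B cells, was lowest in inhibitor replicates 1 and 2, at 2.29 and 4.12 RPKM, followed by PBS replicate 1 at 6.59, and highest in PBS replicate 2 at 22.4. Ms4a1, which encodes the B cell surface protein CD20 that plasma cells lack, ranged from 0 in inhibitor replicates 1 and 2 to 1.87 RPKM in combination replicate 2. The 12 B cell genes summed to 2.26 and 4.17 RPKM in inhibitor replicates 1 and 2, to 4.25 in combination replicate 1, and to between 9.23 and 42.4 in the other 7 libraries. Creld2, an endoplasmic reticulum stress gene, was by contrast second highest in the muscle-rich inhibitor replicate 1, at 145.6 RPKM after 180.0 in PBS replicate 2.

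Heavy chain constant genes, whose products pair with the light chains, summed to between 391 RPKM in inhibitor replicate 1 and 2680 RPKM in PBS replicate 2. Per length, light chain constant genes exceeded them in every library, by a ratio of 1.57 and 1.95 in PBS, 1.48, 1.20 and 1.84 with the inhibitor, 1.88 and 2.06 with the antibody, and 1.38, 2.70 and 2.52 with the combination. This ratio was lowest in inhibitor replicate 2, and the groups overlapped except that both antibody libraries exceeded all 3 inhibitor libraries. Igll1, a surrogate light chain gene of B cell precursors, reached at most 0.053 RPKM in any library.

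The balance of kappa and lambda differed 14.02-fold between libraries. Reads of kappa genes exceeded those of lambda genes by a ratio of 2.85 and 6.63 in PBS, 8.72, 1.75 and 12.5 with the inhibitor, 12.8 and 19.1 with the antibody, and 1.36, 6.19 and 18.97 with the combination. Both antibody libraries lay above both PBS libraries, whereas the inhibitor and combination groups each ran across the PBS range. Group means were 4.74 ± 2.67 (SD, n = 2) for PBS, 7.67 ± 5.47 (SD, n = 3) for the inhibitor, 15.95 ± 4.43 (SD, n = 2) for the antibody and 8.84 ± 9.10 (SD, n = 3) for the combination. Expressed as a share, lambda took 42.3% of light chain reads in combination replicate 1 (95% Clopper-Pearson interval 41.9% to 42.8%) and 4.98% in antibody replicate 2 (4.87% to 5.09%). These intervals treat reads as independent and leave out the spread between libraries. PCR copies of a molecule are not independent, so even the counting error may be larger. The ratio taken over constant genes alone ran from 1.29 to 20.8 and over variable genes alone from 1.48 to 18.95, each with combination replicate 1 lowest.

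Lambda and kappa did not follow the same order of libraries. Lambda genes took 609 and 586 RPM in PBS, 54.8, 462 and 239 with the inhibitor, 273 and 206 with the antibody, and 611, 627 and 230 with the combination. The 2 antibody libraries lay below both PBS libraries in lambda, while for kappa they lay at 3500 and 3932 RPM against 1738 and 3888 in PBS. Combination replicates 1 and 2 were close to the lambda level of PBS, while their kappa levels were 832 and 3876 RPM. Thus the muscle-rich combination replicate 1 was low in kappa and not in lambda, and inhibitor replicate 1 was low in both. The third muscle-rich library, inhibitor replicate 2, had a low kappa level of 808 RPM beside its 462 RPM of lambda.

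**Figure D2:**
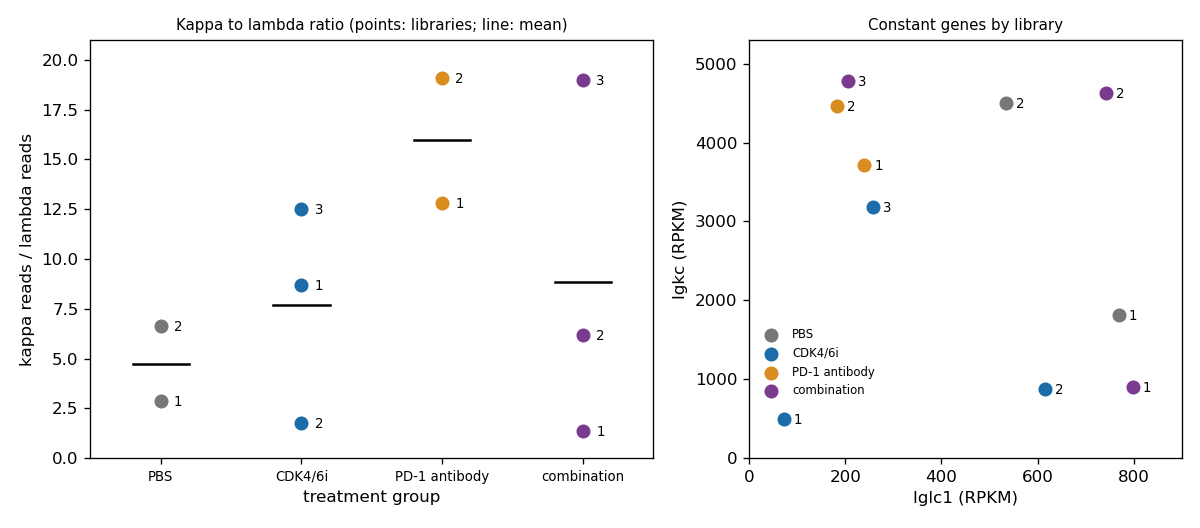
Left, the ratio of kappa to lambda reads in each library (points, numbered by replicate) with the group mean (line). Right, Igkc against Iglc1, both in RPKM, with 1 point per library: the antibody libraries join high Igkc with Iglc1 of at most 240 RPKM, while combination replicate 1 has the highest Iglc1, 797 RPKM, with Igkc at 907 RPKM.

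Iglc1, the constant gene of the lambda 1 chain (chr16:19061618-19062071), carried most lambda constant reads. It stood at 769 and 534 RPKM in PBS, 71.8, 615 and 258 with the inhibitor, 240.0 and 183 with the antibody, and 797, 743 and 205 with the combination. Both antibody libraries lay below both PBS libraries, and inhibitor replicate 1 was the lowest of all. Iglv1, the variable gene that joins to Iglc1 or Iglc3, lay at 528 and 592 RPKM in PBS, 45.3, 428 and 260 with the inhibitor, 279 and 209 with the antibody, and 593, 629 and 218 with the combination. Iglv1 and Iglc1 thus were high in the same 5 libraries and at most 279 RPKM in the other 5.

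The remaining lambda genes were lower in every library. Iglc3 stood at 47.4 and 147 RPKM in PBS, 1.96, 13.97 and 18.8 with the inhibitor, 70.3 and 35.4 with the antibody, and 6.51, 31.1 and 51.6 with the combination. The ratio of Iglc1 to Iglc3 ran from 3.41 in antibody replicate 1 to 122.6 in combination replicate 1, so the libraries differed in lambda subtype as well as in lambda level. Iglc2, the partner of Iglv2 and Iglv3, stood at 36.99 and 36.3 RPKM in PBS, 4.41, 11.2 and 10.8 with the inhibitor, 21.3 and 24.6 with the antibody, and 15.2, 30.8 and 28.7 with the combination. PBS had the 2 highest values of Iglc2 and the inhibitor the 3 lowest. Iglc4 had 3 reads in all, in antibody replicate 2 and combination replicate 2, and a count of 0 in the other 8 libraries.

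Iglv2, the close copy of Iglv1, stood at 21.2 and 52.9 RPKM in PBS, 1.52, 3.04 and 4.27 with the inhibitor, 12.8 and 14.05 with the antibody, and 6.00, 8.94 and 5.95 with the combination. Every treated library lay below both PBS libraries, with the inhibitor lowest and the 4 groups in separate ranges. Iglv1 exceeded Iglv2 by a ratio of 24.9 and 11.2 in PBS and of between 14.9 and 140.9 in the treated libraries, so the 2 copies did not move in a fixed proportion. Iglv3, a lambda variable gene only 62.4% identical to Iglv1, ranged from 0.874 RPKM in inhibitor replicate 1 to 23.7 RPKM in combination replicate 3. Its inhibitor and PBS ranges overlapped.

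The kappa repertoire was broad in each library, and its leading genes differed between most libraries. Each of the 128 Igkv genes had a read in at least 1 library, and 62 had one in all 10. A count of 0 allows a share of up to 0.0524% of Igkv reads in inhibitor replicate 1, the shallowest library, and of up to 0.00453% in combination replicate 3. Pseudogenes, 22.7% of the Igkv genes, took between 0.0233% and 0.102% of Igkv reads. Only 5 genes held over 1% of Igkv reads in all 10 libraries: Igkv19-93, Igkv10-96, Igkv6-23, Igkv3-12 and Igkv14-111. At the other end, 16 genes passed 5% in some library, 6 of them in exactly 1 library and 0 in all.

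The gene with most reads differed between most libraries. Igkv3-7 led PBS replicate 1 with 13.3% of Igkv reads (95% interval 12.8% to 13.8%), and Igkv6-23 led PBS replicate 2 with 8.83%. Igkv12-98 led inhibitor replicates 1 and 2 with 30.4% (29.2% to 31.6%) and 25.7% (24.8% to 26.6%), and Igkv19-93 led inhibitor replicate 3 with 12.8%. Igkv4-55 and Igkv8-30 led the antibody libraries with 9.64% and 13.1%. In the combination the leaders were Igkv6-23 with 12.4%, Igkv12-44 with 16.3% (15.98% to 16.6%) and Igkv19-93 with 18.7% (18.4% to 19.0%). Thus 7 genes led the 10 libraries, and the leader was shared within a group only by inhibitor replicates 1 and 2.

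Igkv12-98 was prominent in inhibitor replicates 1 and 2 but not in the third library of that group. Its RPKM was 41.3 and 23.6 in PBS, 186, 253 and 85.7 with the inhibitor, 8.05 and 65.6 with the antibody, and 7.60, 85.2 and 62.7 with the combination. Its share of Igkv reads was at most 2.30% in each of the other 8 libraries. Both libraries in which it led were muscle-rich and had 5725 and 8598 Igkv reads, the 2 smallest numbers, and its RPKM was nonetheless highest there. The third muscle-rich library, combination replicate 1, held Igkv12-98 at 0.754%.

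Some genes were prominent in a single library. Igkv12-44 stood at 574 RPKM in combination replicate 2 and at most 32.1 RPKM elsewhere. Igkv2-109 stood at 280 RPKM in antibody replicate 2 and at most 20.9 RPKM elsewhere. Igkv12-38 stood at 128.8 RPKM in PBS replicate 2 and at most 25.1 RPKM elsewhere, and Igkv3-1 at 133 RPKM in PBS replicate 1 and at most 48.0 RPKM elsewhere. Of the 60 genes that passed 1% of Igkv reads in some library, 18 had a highest share over 10 times their median share.

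**Figure D3:**
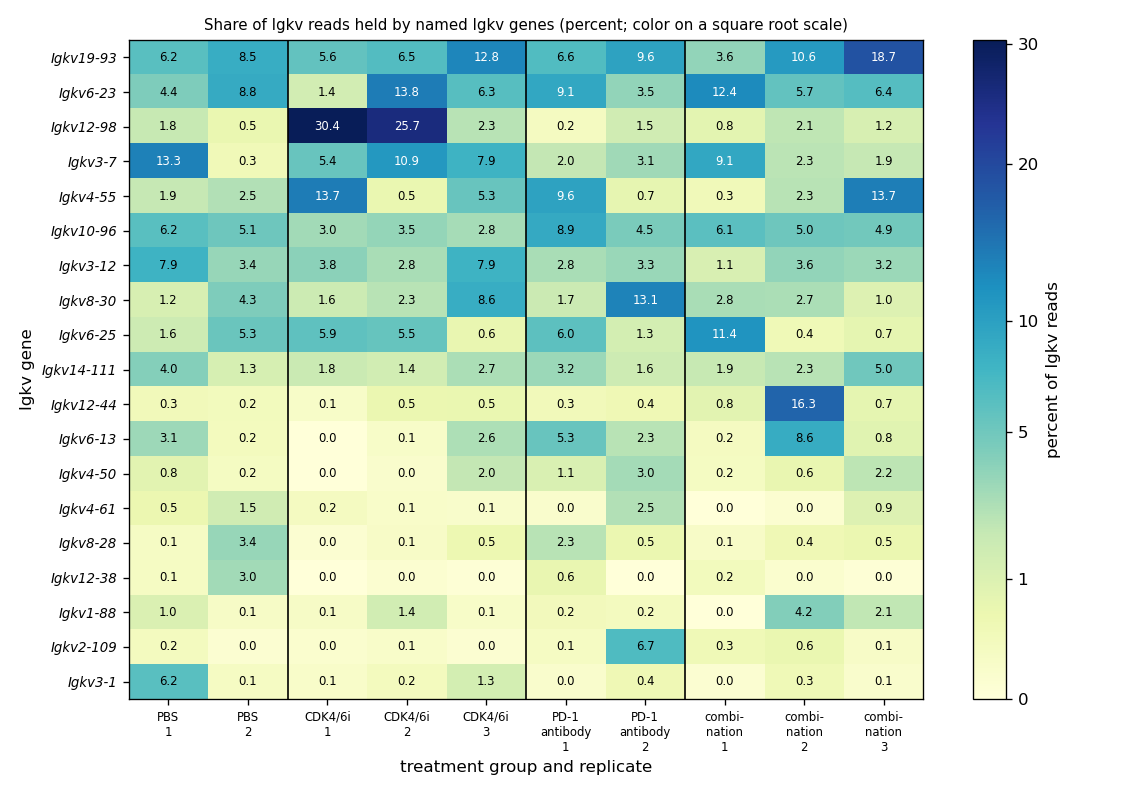
Percent of Igkv reads held by 19 Igkv genes, those with the highest mean share, those with the largest variance of log2 RPKM and the leaders, in each library (columns, with lines between treatment groups; color on a square root scale). Igkv12-98 is dark in inhibitor replicates 1 and 2, Igkv12-44 in combination replicate 2 and Igkv2-109 in antibody replicate 2, whereas Igkv19-93 and Igkv10-96 hold at least 2.83% in every column.

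The most variable member was Igkv6-13, with a variance of log2(RPKM + 0.5) of 10.98 over the 10 libraries. It stood at 67.8 and 8.51 RPKM in PBS, 0, 0.774 and 95.4 with the inhibitor, 226 and 99.0 with the antibody, and 1.79, 340 and 43.2 with the combination. Its 3 lowest values fell in the muscle-rich libraries. Igkv6-23, the member closest to it at 93.9% identity over the compared bases, stood at 91.5 and 357 RPKM in PBS, 8.02, 128 and 221 with the inhibitor, 377 and 149 with the antibody, and 117, 217 and 317 with the combination. The order of libraries differed between these 2 genes, with Igkv6-13 high in PBS replicate 1 and low in PBS replicate 2.

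Igkv4-55 was the only gene both among the 10 of highest mean share and among the 10 most variable. It stood at 39.2 and 99.4 RPKM in PBS, 76.7, 4.92 and 182 with the inhibitor, 388 and 26.8 with the antibody, and 2.68, 85.9 and 660 with the combination, so both groups of 3 libraries ran from under 5 RPKM to over 180 RPKM. The other most variable members after Igkv6-13 were Igkv4-50, Igkv4-61, Igkv8-28, Igkv12-38, Igkv1-88, Igkv2-109, Igkv3-1 and Igkv12-44, with variances from 8.43 down to 5.57. Igkv4-50 ranged from 0 to 131 RPKM, Igkv4-61 from 0 to 101.9, Igkv8-28 from 0.10 to 136 and Igkv1-88 from 0 to 162. For each of these 8 genes, some libraries of the same group differed by more than 10-fold.

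In contrast, Igkv19-93 and Igkv10-96 were among the 10 leading genes of every library. Igkv19-93, the only member of its family, stood at 132 and 348 RPKM in PBS, 32.8, 61.5 and 456 with the inhibitor, 278 and 414 with the antibody, and 34.5, 413 and 940 with the combination. Its share of Igkv reads ran from 3.59% to 18.7%. Igkv10-96 held between 2.83% and 8.93% the narrower range of both. The 10 leading genes of the 10 libraries made up a set of 32 genes, of which 14 were among the leaders of a single library.

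By family, genes of family 6 (9 genes) took 10.7% to 33.6% of Igkv reads, family 3 (12 genes) 8.09% to 30.8%, family 4 (33 genes, the largest) 5.41% to 24.6% and family 12 (10 genes) 3.32% to 30.7%. Family 12 was high in 3 libraries, inhibitor replicates 1 and 2 through Igkv12-98 and combination replicate 2 through Igkv12-44, and at most 5.96% elsewhere. Family 3 was highest in PBS replicate 1, where Igkv3-7, Igkv3-12 and Igkv3-1 stood at 286, 171 and 133 RPKM. The other 16 of the 20 families each held at most 18.7% in any library.

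Diversity was summarised as the effective number of Igkv genes, the exponential of the Shannon entropy of their read shares, which equals the number of equally used genes that would give the same entropy. It was 34.4 and 37.5 in PBS, 17.4, 18.1 and 30.5 with the inhibitor, 32.8 and 31.4 with the antibody, and 31.3, 27.8 and 27.9 with the combination. Both PBS libraries lay above all treated libraries, and the muscle-rich inhibitor replicates 1 and 2 lay far below the rest. The muscle-rich combination replicate 1, at 31.3, was the highest of its group. The part of muscle tissue in these values was not tested. Group means were 35.99 ± 2.19 (SD, n = 2) for PBS, 21.98 ± 7.36 (SD, n = 3) for the inhibitor, 32.1 ± 0.967 (SD, n = 2) for the antibody and 29.0 ± 2.01 (SD, n = 3) for the combination. These values rest on 2 PBS libraries. With the inverse Simpson index, which weights the leading genes more, the means were 23.5, 12.0, 20.3 and 16.3 in the same order. By that index the groups overlapped, since antibody replicate 1 at 21.6 lay above PBS replicate 1 at 21.1.

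Fewer genes carried the bulk of reads in the libraries of low diversity. It took 8 and 10 genes to reach 50% of Igkv reads in PBS, 3, 3 and 7 with the inhibitor, 8 and 7 with the antibody, and 7, 6 and 6 with the combination. The number of Igkv genes with a read was 92 and 112 in PBS, 74, 80 and 99 with the inhibitor, 105 and 99 with the antibody, and 85, 101 and 106 with the combination, but this number depends on depth. In samples of 5725 Igkv reads, the number in the shallowest library, the expected number of genes was 83.7 and 87.4 in PBS, 74.0, 78.4 and 82.0 with the inhibitor, 83.2 and 84.1 with the antibody, and 81.4, 82.4 and 82.3 with the combination. At equal numbers of Igkv reads all inhibitor and combination libraries thus lay below both PBS libraries, and the antibody libraries overlapped them. Equal numbers of reads do not make the numbers of contributing cells or RNA molecules equal. Inhibitor replicates 1 and 2, the lowest here, were muscle-rich and held only 532 and 1270 RPM of light chain reads.

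**Figure D4:**
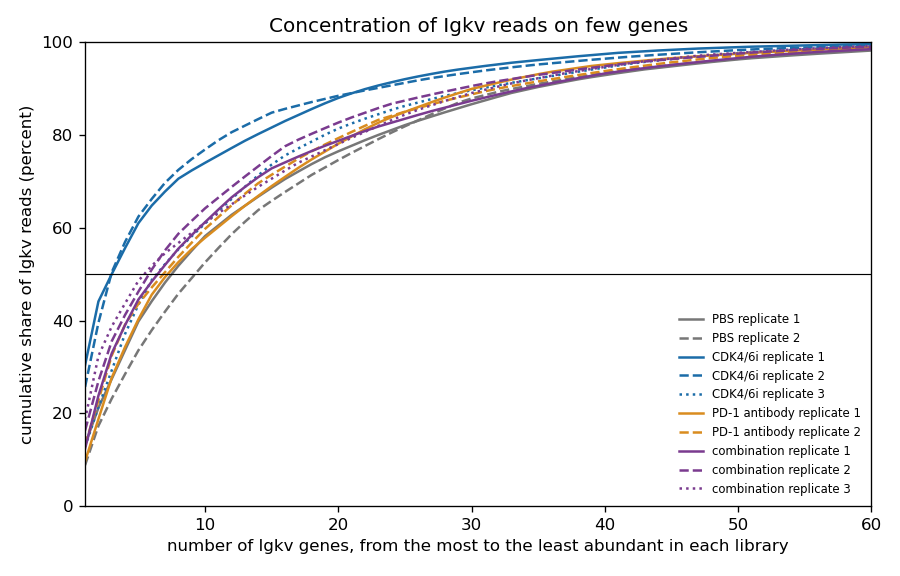
Cumulative share of Igkv reads (percent, vertical axis) against the number of Igkv genes counted from the most abundant in each library (horizontal axis, first 60 genes), 1 line per library, colored by treatment group; the horizontal line marks 50%. Inhibitor replicates 1 and 2 reach 50% with 3 genes, PBS replicate 2 with 10.

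Libraries of the same treatment did not share more of their Igkv usage than others. The share of Igkv reads common to 2 libraries, 100% minus the Bray-Curtis distance of their gene shares, had a median of 49.5% over the 8 pairs within groups (44.8% to 65.6%) and of 53.2% over the 37 pairs between groups (37.3% to 62.3%). The most similar pair was inhibitor replicates 1 and 2, at 65.6% and with 7 of their 10 leading genes in common. The labels do not say whether these 2 libraries come from separate animals. The median pair shared 5 of its 10 leading genes, within and between groups alike.

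Usage also varied along the kappa locus, which spans 3.17 Mb upstream of Igkc. The 32 Igkv genes nearest to Igkc, up to 0.652 Mb away, held a median of 42.2% of Igkv reads (26.2% to 53.4%). The next 32 held 15.4% (8.71% to 25.3%), the third 32 held 23.4% (17.1% to 43.8%) and the farthest 32 held 15.4% (9.19% to 19.8%). The nearest set thus led in 8 of 10 libraries, the exceptions being inhibitor replicate 1 and combination replicate 3, where the third set led with 43.8% and 34.3%. Single genes of the third set held much of this. Igkv12-98 held 30.4% in inhibitor replicate 1 and Igkv19-93 held 18.7% in combination replicate 3. From nearest to farthest the sets include 5, 7, 7 and 10 pseudogenes. In mouse the kappa locus holds variable genes in both orientations, joined by deletion or by inversion, and 53 of 128 lie on the strand of Igkc (41.4%). These took a median of 42.9% of Igkv reads, from 29.1% in combination replicate 3 to 57.2% in inhibitor replicate 1. Igkv12-98 lies on this strand and is part of that highest value.

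**Figure D5:**
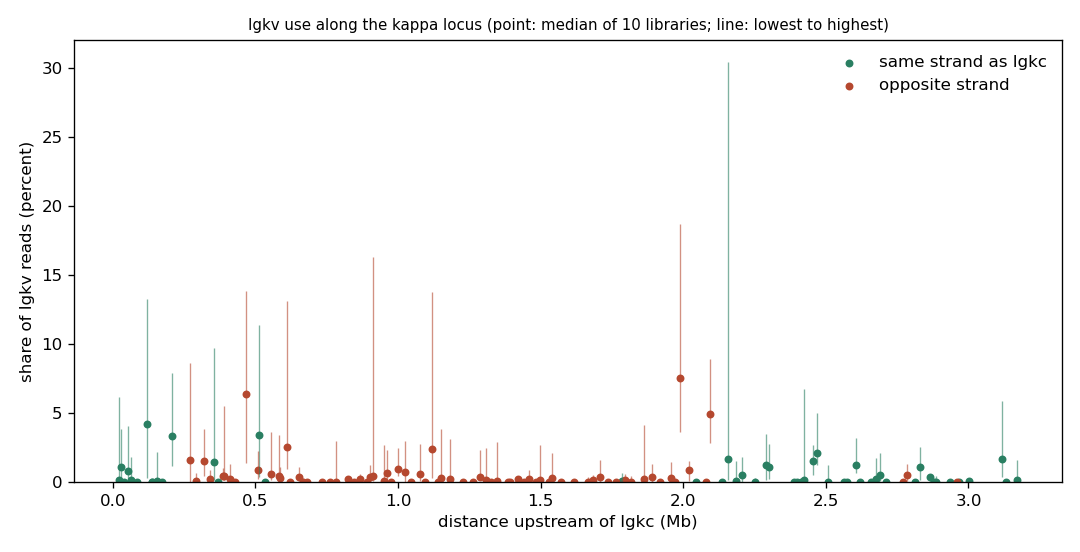
Share of Igkv reads (percent) of each of the 128 Igkv genes against its distance upstream of Igkc in Mb; points are medians of the 10 libraries, lines run from the lowest to the highest library, and color gives the strand relative to Igkc. The 2 highest medians, 7.55% for Igkv19-93 and 6.34% for Igkv6-23, lie 1.99 and 0.466 Mb from Igkc.

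For tests by treatment, limma was fitted to log2(RPKM + 0.5) of all 19368 genes that reached 0.5 RPKM in at least 2 libraries, with Benjamini-Hochberg adjustment over all of them. Of the 136 members, 97 passed this filter (90 Igkv genes, Igkc, the 3 Iglv genes and 3 Iglc genes). The 39 others, 27 pseudogenes, 11 variable genes and Iglc4, held 0.0554% of all light chain reads, and the highest value among them was 11.6 RPKM for Igkv20-101-2 in PBS replicate 2. The median log2 fold change of all genes was −0.20 for the inhibitor and −0.17 for the antibody against PBS, and median-ratio scaling moved these by 0.20 and 0.15, so members are set beside the median of all genes. The share of all genes with a lower mean is given only for the inhibitor against PBS. In the other contrasts, counts of higher and lower means of members and lists are descriptions without that share. The comparisons share libraries and are not independent of each other. The members are made by the same cell types and can rise and fall together, so they are not independent either. A share of members set beside that of all genes is therefore a description and not a test.

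For the inhibitor alone against PBS, no light chain gene passed. With the inhibitor, 84 of 97 members had a lower mean than in PBS and 13 a higher one, with a median log2 fold change of −1.51 against −0.20 over all genes, of which 76.6% were lower. limma called 0 members at an adjusted p of 0.05 (background 0% of genes called), and voom on the recovered reads also called 0. At an unadjusted p under 0.05 there were 17 members, all lower, or 17.5% of those tested, against 5.03% of all genes lower and 5.35% in either direction. Voom gave 11 of 95 members, against 3.42% of all its genes. In 28 members every inhibitor library lay below both PBS libraries, 28.9% against 17.3% of all genes, and in 1 member every one lay above them, 1.03% against 1.71%. Without the muscle-rich libraries, which leaves inhibitor replicate 3 alone in its group and assumes that it varies like the other groups, 50 members were lower and 47 higher and the median was −0.080. The unadjusted count was then 11 members, 11.3%, against 14.4% of all genes, so the members' share lay below that of all genes. It was 6 of 96 without PBS replicate 2 (6.25% against 4.32%), 10 without inhibitor replicate 1 (10.3% against 3.14%) and 28 without inhibitor replicate 3 (28.9% against 15.97%).

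Iglv2 had the lowest p among members in this comparison. Its log2 fold change was −3.39 (SE 0.45, limma adjusted p = 0.239, lower in 3 of 3 inhibitor libraries), with adjusted p from 0.0233 to 0.945 over 20 alternatives. It passed without PBS replicate 1 (log2 fold change −4.04, limma adjusted p = 0.0233), together with Igkv7-33, a gene at 11.7 RPKM in PBS replicate 2 and at most 1.06 RPKM elsewhere. Each fit without a PBS or an antibody library leaves that group with a lone library and assumes that it varies like the other groups. Without the muscle-rich libraries the log2 fold change of Iglv2 was −2.83. Iglc2, its usual partner, followed with −2.10 (SE 0.42, limma adjusted p = 0.595) and Igkv5-39 with −2.58 (SE 0.71, limma adjusted p = 0.844). Igkv5-39 stood at 7.11 and 14.1 RPKM in PBS and at 2.13, 1.83 and 0.404 with the inhibitor. Igkc differed by −1.35 (SE 0.92, limma adjusted p = 0.844), and by 0.16 without the muscle-rich libraries.

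Genes of the producing cells were counted in the same way, by the mean of log2(RPKM + 0.5), on which 76.6% of all genes were lower with the inhibitor (median −0.20). Of 11 tested plasma cell genes, 9 were lower (median log2 fold change −0.44), of 11 B cell genes 10 (median −0.28) and of 8 heavy chain constant genes 7 (median −1.21), with 0 genes called by limma in each list. The RPKM means of the B cell genes Pax5, Spib and Fcer2a were not lower with the inhibitor, at 0.887, 0.704 and 0.360 against 0.838, 0.440 and 0.312 in PBS. The 2 muscle-rich inhibitor libraries had the lowest sums of heavy chain and B cell genes of their group.

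For the antibody alone against PBS, again no light chain gene passed. There were 52 members with a higher and 45 with a lower mean with the antibody, with a median log2 fold change of 0.31 against −0.17 over all genes. limma called 0 members (background 0%), and voom called 0. At an unadjusted p under 0.05 there were 2 higher and 2 lower members, 4.12% together, against 8.65% of all genes (1.4% higher, 7.24% lower), and voom gave 4, against 4.15% of its genes. In 18 members, 18.6% of those tested, both antibody libraries lay above both PBS libraries, against 8.78% of all genes. In 14 members, 14.4%, both lay below, against 34.8% of all genes. Without PBS replicate 1 the median was −0.15, with 45 members higher and 52 lower. The unadjusted count was then 12 (12.4% against 4.37% of all genes), and without PBS replicate 2 it was 1 (1.04% against 12.9%). It was 7 without antibody replicate 1 (7.29% against 3.24%), 2 without antibody replicate 2 (2.11% against 6.39%) and 13 without the muscle-rich libraries (13.4% against 14.01%).

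Igkv4-57-1, a family 4 variable gene, had the lowest p here, at 40.8 and 124 RPKM in PBS and 8.25 and 2.98 RPKM with the antibody. Its log2 fold change was −3.70 (SE 1.24, limma adjusted p = 0.534, lower in 2 of 2 antibody libraries). Igkv4-70 went the other way, from 3.46 and 1.22 RPKM in PBS to 11.8 and 35.9 RPKM with the antibody, which is 3.02 on the log2 scale (SE 1.02, limma adjusted p = 0.535). Iglv2 differed by −1.29 (SE 0.49, limma adjusted p = 0.557) and Igkc by 0.51 (SE 1.01, limma adjusted p = 0.938). Of the lists, 9 of 11 plasma cell genes (median 0.37) and 10 of 11 B cell genes (median 0.62) were higher with the antibody, with 0 called by limma. Pancreas genes moved with this contrast, and their part in it was not tested.

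For the combination against PBS, no light chain gene passed either. There were 40 members with a higher and 57 with a lower mean in the combination, with a median log2 fold change of −0.29 against −0.048 over all genes. limma called 0 members (background 0%), and voom called 0. At an unadjusted p under 0.05 there were 3 members, all lower, or 3.09%, against 2.32% of all genes lower and 3.54% in either direction, and voom gave 2, against 3.81% of its genes. In 10 of 97 members every combination library lay below both PBS libraries, against 11.5% of all genes, and in 1 every one lay above them, against 4.45%. Without the muscle-rich combination replicate 1 and its 2 inhibitor counterparts the median was 0.21, and without PBS replicate 2 it was 0.12. The unadjusted count was 7 without those 3 libraries (7.22% against 10.5% of all genes) and 11 without PBS replicate 1 (11.3% against 3.32%). It was 7 without combination replicate 1 (7.22% against 6.64%) and 6 without combination replicate 3 (6.45% against 1.99%).

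Iglv2 again had the lowest p, at −2.21 on the log2 scale (SE 0.45, limma adjusted p = 0.824, lower in 3 of 3 combination libraries). Igkv4-57-1, at 1.45, 8.85 and 28.4 RPKM in the combination, differed by −3.15 (SE 1.13) and Igkv9-123 by −1.07 (SE 0.45), each with a limma adjusted p of 1. Igkv9-123 was near the filter, at 1.48 and 1.07 RPKM in PBS and at most 0.63 RPKM in the combination. Igkc differed by −0.072 (SE 0.92, limma adjusted p = 1), and by 0.72 without the muscle-rich libraries. Igkv7-33 alone passed without PBS replicate 1. B cell genes were higher in the combination for 10 of 11 members (median 0.59), plasma cell genes for 4 of 11 (median −0.20) and heavy chain constant genes for 3 of 8 (median −0.27), with 0 called by limma.

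Set against the antibody alone, the combination was lower for 68 members and higher for 29, with a median log2 fold change of −0.55 against 0.12 over all genes. limma called 0 members (background 0%), and voom called 0. At an unadjusted p under 0.05 there were 1 higher and 4 lower members, 5.15% together, against 5.55% of all genes (4.02% higher, 1.53% lower), and voom gave 7, against 4.23% of its genes. The count was 9 without the muscle-rich libraries (9.28% against 12.1% of all genes), 9 without inhibitor replicate 1 (9.28% against 4.77%) and 3 without combination replicate 1 (3.09% against 6.72%). In 9 members every combination library lay below both antibody libraries, 9.28% against 5.1% of all genes, and in 3 above them, 3.09% against 21.5%. Igkv17-121 stood at 81.7 and 29.5 RPKM with the antibody and at 3.91, 3.61 and 12.2 RPKM with the combination, which is −3.02 on the log2 scale (SE 1.09, limma adjusted p = 0.891). Igkv4-70 differed by −2.55 (SE 0.93) and Igkv5-45 by 2.06 (SE 0.77), each with a limma adjusted p of 0.891. Igkc differed by −0.58 (SE 0.92, limma adjusted p = 1), and by 0.21 without the muscle-rich libraries, where the median of members was −0.038. All 11 plasma cell genes (median −0.37) and all 8 heavy chain constant genes (median −0.61) had a lower mean of log2(RPKM + 0.5) in the combination, with 0 called by limma. The RPKM means of Pou2af1, Igha and Ighd were higher there, at 4.72, 167.9 and 3.11 against 4.09, 149.8 and 2.74 with the antibody.

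Set against the inhibitor alone, the combination was higher for 85 members and lower for 12, with a median log2 fold change of 1.002 against 0.15 over all genes. limma called 0 members (background 0%), and voom called 0. At an unadjusted p under 0.05 there were 14 members, all higher, or 14.4%, against 6.75% of all genes higher and 8.03% in either direction, and voom gave 10, against 8.38% of its genes. In 15 members every combination library lay above every inhibitor library, 15.5% against 7.84% of all genes, and in 1 below them, against 3.01%. Without the muscle-rich libraries 62 members were higher and 35 lower, and the median was 0.45. The unadjusted count was then 9, and the members' share of 9.28% lay below the 12.2% of all genes. It was 27 without inhibitor replicate 3 (27.8% against 23.3%) and 25 without combination replicate 1 (25.8% against 15.7%).

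Igkv5-45 had the lowest p in this comparison, at 0, 0.313 and 0.365 RPKM with the inhibitor and 24.7, 4.71 and 3.30 RPKM with the combination. Its log2 fold change was 3.49 (SE 0.68, limma adjusted p = 0.618, higher in 3 of 3 combination libraries). Its inhibitor values rest on 0, 3 and 4 reads. It is 98.6% identical to Igkv5-43, which differed by 2.20 (SE 0.67), so the split of reads between them is uncertain. Iglc2 differed by 1.49 (SE 0.37) and Igkv1-135 by 3.33 (SE 0.995), each with a limma adjusted p of 0.618. Igkv1-135 stood at 1.88, 15.1 and 15.7 RPKM with the inhibitor and at 34.5, 170 and 101.7 RPKM with the combination, so the groups did not overlap. Igkc differed by 1.28 (SE 0.83, limma adjusted p = 0.694). Plasma cell genes were higher for 8 of 11 (median 0.52), B cell genes for 10 of 11 (median 0.91) and heavy chain constant genes for 7 of 8 (median 0.78), with 0 called by limma.

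Whether the inhibitor acted differently with and without the antibody was tested as an interaction. limma called 0 members (background 0%), voom called 0, and the median log2 interaction of members was 1.01 against 0.33 over all genes. At an unadjusted p under 0.05 there were 9 members, all positive, or 9.28%, against 4.97% of all genes positive, 0.656% negative and 5.62% in either direction, and voom gave 5, against 1.8% of its genes. Iglv2 (2.47, SE 0.63), Igkv5-45 (4.04, SE 1.08) and Iglc2 (2.16, SE 0.59) had the lowest p, each with a limma adjusted p of 0.777, and Igkc had an interaction of 0.77 (SE 1.31, limma adjusted p = 0.861). Without the muscle-rich libraries the median of members was −0.18, and the 9 members at an unadjusted p under 0.05 stood against 13.4% of all genes. Without PBS replicate 2, which leaves PBS with a lone library, the members' share also lay below that of all genes. With the replicate number added to the model as a block, the members' share lay above that of all genes. Fits of the interaction without other single libraries are not given here.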

How the data were processed

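The deposited values are RPKM per gene in 1 table for all 10 libraries, made by the authors. Per the labels' protocols, RNA was extracted with TRIzol, stranded mRNA libraries were sequenced paired-end on an Illumina instrument, and 2 library kits are named without saying which served which sample. The build was GRCm38 (mm10), per the submitters' processing notes. Which aligner, counter and annotation release were used, and whether strand was, is not given in the sources used here. Near-identical genes and overlapping entries are therefore uncertain, as for Iglc2, whose span includes the joining segment Iglj2. Columns were assigned to samples by the group word and number of the title despite spelling differences.

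The members, marker lists and tests were chosen with earlier results of these data known. RPKM multiplied by gene length gave whole multiples of the worth of 1 read for 100% of values (tolerance 1e-06), so reads and library totals were recovered; shares, ratios and diversity use these reads. Tests used limma 3.58.1 (R 4.3.3) on log2(RPKM + 0.5), which understates changes of low genes. The model had 4 group means over 10 libraries (6 residual degrees of freedom), trend and robust moderation, two-sided tests and Benjamini-Hochberg adjustment at 0.05 over 19368 genes in each of 6 contrasts. Voom with TMM factors used 21143 genes with at least 10 recovered reads in at least 2 libraries. The procedure was checked on simulated data that did not model the spread or the muscle, pancreas and liver content of these libraries. That check therefore does not show how many true changes the tests would miss here. Summed levels, ratios and diversity are descriptions without a test.

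Named genes were all constant and Iglv genes, the 10 Igkv genes of highest mean share, the 10 tested members of largest variance, the leader of each library and, per contrast, the 3 members with the lowest p and Igkc. Igkv7-33, Igkv20-101-2 and other single values outside this rule were chosen after their values were seen. All 136 members were found in GENCODE M21 on the same chromosome. Other settings tried were median-ratio and quantile scaling, pseudocounts of 0.1 and 1, a filter at 1 RPKM or none, voom, a fit to only the 2 groups compared, a block for replicate number, leaving out each library and, added after the data were seen, leaving out the 3 muscle-rich libraries. Figures were drawn with matplotlib 3.10.9.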

Additional observations from a re-analysis of the deposited data

How the results depend on the processing

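No light chain gene was called in any contrast under any alternative except leaving out PBS replicate 1. That raised the count to 2 for the inhibitor against PBS (Iglv2 and Igkv7-33, range 0 to 2 over single libraries left out) and to 1 for the combination against PBS (Igkv7-33, range 0 to 1); the range was 0 to 0 in the other contrasts. The fit without PBS replicate 1 leaves PBS with a lone library. Of 476 alternative values for named genes, 467 kept their direction and stayed on the same side of the threshold. Igkc changed direction in 8: without the muscle-rich libraries its log2 fold change was 0.16 for the inhibitor and 0.72 for the combination against PBS and 0.21 for the combination against the antibody, and with quantile normalization it was 0.000100006 for the combination against PBS. With single libraries left out it ran from −0.15 to 1.17 for the antibody against PBS, from −0.73 to 0.72 for the combination against PBS and from −0.99 to 0.21 for the combination against the antibody. The cause was not tested. The replicate number as a block gave a count of 0 members in every contrast. The block gave 35 members at an unadjusted p under 0.05 (36.1% against 11.9% of all genes) for the inhibitor, 7 (7.22% against 9.28%) for the antibody and 10 (10.3% against 3.99%) for the combination against PBS. It gave 15 (15.5% against 7.9%) for the combination against the antibody, 21 (21.6% against 11.98%) against the inhibitor and 12 (12.4% against 6.98%) for the interaction. In a fit to only the groups compared, the antibody against PBS gave 11 of 88 members at an unadjusted p under 0.05 (12.5% against 7.69%). The combination gave 6 of 91 when set beside PBS (6.59% against 3.49%) and 9 of 95 when set beside the antibody (9.47% against 7.8%). This fit was also run for the inhibitor against PBS and for the combination against the inhibitor. It called 0 members in both, and its unadjusted counts for them are not given here. Same-numbered libraries of different groups correlated from −0.449 to 0.620 over 13 pairs, 7 of them at or below 0.1, and the labels give no pairing, so the numbers were not taken to pair the samples; 3 of 6 inhibitor and combination libraries correlated best with their own number in the other group.

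Another unit, index or subset of genes gives other numbers by construction, so these values do not test the group levels. The order of the group means was the same for summed RPKM as for RPM. It was also the same for the inverse Simpson index as for the effective number. Summed RPKM was 7627, 3797, 8836 and 7815 for PBS, inhibitor, antibody and combination, and constant genes alone gave 2308 RPM for the antibody. The inverse Simpson index was 23.5, 12.0, 20.3 and 16.3. Without the leading gene the effective number was 33.6 for the antibody and 32.5 for the combination. Without the muscle-rich libraries the inhibitor stood at 3229 RPM and an effective number of 30.5. With single libraries left out, the summed level ran from 2348 to 4474, 901 to 2250, 3773 to 4138 and 2973 to 4551 RPM, the kappa to lambda ratio from 2.85 to 6.63, 5.23 to 10.6, 12.8 to 19.1 and 3.77 to 12.6, and the effective number from 34.4 to 37.5, 17.7 to 24.3, 31.4 to 32.8 and 27.8 to 29.6, in the same order of groups. The interaction uses all groups, so a fit to only the groups compared gives no other value. Depth limits single rare genes in inhibitor replicates 1 and 2, which had the fewest Igkv reads.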

Other observations

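The heavy chain partners differed between libraries in the same direction as lambda in some cases, given here as values only. Ighg2c, which encodes the IgG2c constant region, made up 61.3% and 51.8% of summed heavy chain constant RPKM in PBS, 62.1%, 80.0% and 49.4% with the inhibitor, 55.5% and 51.3% with the antibody, and 82.0%, 54.1% and 44.0% with the combination. Its share was highest in combination replicate 1 and inhibitor replicate 2, the libraries with the highest lambda shares, 42.3% and 36.4% of light chain reads. The lowest Ighg2c share, in combination replicate 3, stood beside a lambda share of 5.01%. Inhibitor replicate 1 joined the third highest Ighg2c share with a lambda share of 10.3%.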
